A study of Mus musculus with 24 samples.

Results

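Toll-like receptors sense microbial molecules and products of damaged cells, and Cd14 is a co-receptor that delivers lipopolysaccharide and other ligands to them. The 10 genes described here were the rows of the deposited mouse liver count table whose symbol is Tlr1, Tlr2, Tlr3, Tlr4, Tlr5, Tlr7, Tlr8, Tlr9, Tlr13 or Cd14, out of 56205 gene rows. All 10 were found and all 10 passed the filter on low counts. Of these, 7 were higher and 1 (Tlr5) was lower in livers of mice on a methionine-choline deficient (MCD) diet, while Tlr3 and Tlr8 did not pass the test. Among all tested genes, 19.2% were higher and 19.1% were lower.

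Poly(A) RNA was sequenced from whole livers of 24 C57BL/6J mice. Of these mice, 12 had received the MCD diet and 12 its control diet for 20 weeks, and all were wild type with no transgene or drug. The study used this diet as a model of steatosis with fibrosis in mice. Its methods list the MCD diet as rich in fat, while its results speak of a choline-deficient, amino acid-defined diet (CDAHFD); MCD, as labelled, is used here. The study used males and females in its C57BL/6J experiments, but does not give the sexes for each diet. Sex, litter, cage and sequencing batch are not labelled per library, and the age at the start of this diet is not given in the sources used here. Each library of a diet was taken as a separate animal, as the stated number of animals equals the number of libraries, and neither diet held identical libraries.

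On the cell surface, Tlr2 recognises bacterial lipoproteins as a pair with Tlr1 or Tlr6, Tlr4 recognises lipopolysaccharide together with Ly96 (MD-2) and Cd14, and Tlr5 recognises flagellin. In endosomes, Tlr3 binds double-stranded RNA, Tlr7 and Tlr8 bind products of single-stranded RNA, Tlr9 binds DNA with unmethylated CpG motifs, and Tlr13 binds bacterial ribosomal RNA. Signals pass through the adaptors Myd88 and Ticam1 to NF-kB and interferon regulatory factors. The liver receives blood from the gut through the portal vein, and Kupffer cells, infiltrating macrophages, endothelial cells and hepatocytes all carry some of these receptors.

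Upstream sequence is shown for 5 of the genes to place the motif matches: 4 of these genes were higher in MCD livers (Tlr1, Tlr2, Tlr9 and Tlr13) and 1 was lower (Tlr5). RefSeq windows of 250 bases before an annotated start on GRCm38.p6 were used for 7 of the 10 genes. No window was found for Tlr4 and Tlr7. Cd14 was left out of this step by choice, so whether it holds a match was not counted. Stretches that lie in an annotated exon of the gene were removed before printing. Capitals mark matches, on either strand, to GAGGAA, the core bound by the myeloid factor PU.1 (Tlr1, Tlr9, Tlr13), or to GGG and CC separated by any 5 bases, a general NF-kB pattern (Tlr2, Tlr5).
Tlr1 chr5:64933564-64933808 (minus strand): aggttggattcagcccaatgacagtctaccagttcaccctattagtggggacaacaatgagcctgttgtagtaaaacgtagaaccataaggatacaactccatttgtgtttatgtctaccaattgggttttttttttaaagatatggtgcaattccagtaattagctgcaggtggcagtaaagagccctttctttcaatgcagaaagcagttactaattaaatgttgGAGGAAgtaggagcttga
Tlr9 chr9:106222348-106222597 (plus strand): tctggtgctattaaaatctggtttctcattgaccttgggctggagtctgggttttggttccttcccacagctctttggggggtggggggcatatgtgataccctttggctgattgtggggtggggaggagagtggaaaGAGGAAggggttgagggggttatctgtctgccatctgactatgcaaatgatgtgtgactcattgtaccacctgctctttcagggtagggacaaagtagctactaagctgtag
Tlr13 chrX:106143025-106143203 (plus strand): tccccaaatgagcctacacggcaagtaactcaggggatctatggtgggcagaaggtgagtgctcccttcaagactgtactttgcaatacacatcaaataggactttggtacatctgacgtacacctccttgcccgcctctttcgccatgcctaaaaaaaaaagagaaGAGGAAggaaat
Tlr2 chr3:83841768-83841858 (minus strand): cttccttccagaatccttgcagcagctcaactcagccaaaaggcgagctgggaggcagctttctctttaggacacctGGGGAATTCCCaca
Tlr5 chr1:182954538-182954787 (plus strand): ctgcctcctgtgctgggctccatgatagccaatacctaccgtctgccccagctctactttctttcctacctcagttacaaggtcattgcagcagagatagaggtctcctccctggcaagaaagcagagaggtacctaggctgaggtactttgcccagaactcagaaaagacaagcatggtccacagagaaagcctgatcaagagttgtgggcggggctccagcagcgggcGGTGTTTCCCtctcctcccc
GAGGAA occurred in a window of 4 of the 7 genes (Tlr1, Tlr8, Tlr9 and Tlr13), and in at least 1 window of 25.9% of all 27025 genes with windows of the same length. Tlr1 has 2 windows, and per window the share over all 32851 was 23.3%. The NF-kB pattern occurred in those of Tlr2, Tlr3 and Tlr5, and in 48.7% of all genes (45.8% of windows). In Tlr2 the capitals hold overlapping matches, on both strands. An interferon response pattern, GAAA repeated after any 2 bases, occurred in 0 of the 7 and in 3.46% of all genes (2.98% of windows). Counted from the annotated start, the matches began at -23 in Tlr1, -112 in Tlr9, -83 in Tlr13 and -20 in Tlr5. These are matches of letters only, and binding was not measured.

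Total counts ran from 16793207 to 24915175 in control libraries and from 16388650 to 24577848 in MCD libraries. Levels are given as CPM, the usual count per unit of library size, with library sizes scaled by TMM factors. Those factors did not overlap between diets (0.642 to 0.973 in control, 1.07 to 1.26 in MCD), so the calls of the 10 genes, the pathway genes and the marker lists were also made with other scalings. The labelled tissue matched its markers: summed CPM of 5 hepatocyte genes ran from 68639 to 162395 in control and from 50469 to 75232 in MCD libraries. Control replicate 12 stood apart, with the lowest scaling factor, the fewest genes detected (17469) and the highest hepatocyte sum. Results that rest on it are given with and without it.

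The comparison of diets asked which receptor mRNAs differed in the liver after 20 weeks. Genes were called at an edgeR false discovery rate (FDR) of 0.01 or less with an absolute log2 fold change above 0.5. Of the 10 genes, 8 passed, beside 38.3% of all 14109 genes tested. The 7 called higher compare with 19.2% of all tested genes, and the 1 called lower with 19.1%. The median log2 fold change of the 10 genes was 1.29, beside -0.10 over all tested genes. In 5 genes (Tlr1, Tlr2, Tlr7, Tlr13 and Cd14) every MCD library lay above every control library, which held for 9.5% of tested genes. In 0 of the 10 did every MCD library lie below every control library, beside 4.88% of tested genes. In whole liver, fewer cells of a type and less RNA per cell cannot be told apart.

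**Figure D1:**
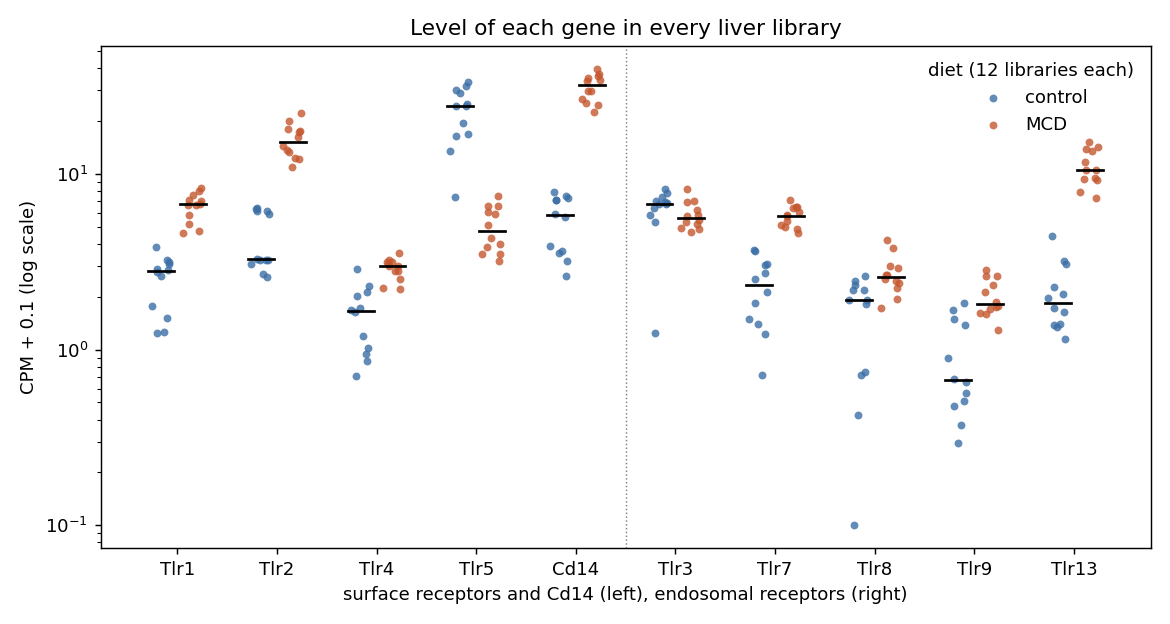
CPM plus 0.1 on a log axis for the 10 genes in each of 12 control (blue) and 12 MCD (orange) libraries, with black lines at the medians. MCD points of Tlr1, Tlr2, Tlr7, Tlr13 and Cd14 lie above all control points, those of Tlr5 lie below except for 1 control library, and the lowest Tlr8 point is control replicate 12 with 0 counts.

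Among the surface receptors, Tlr2 (ENSMUSG00000027995) had the highest level in MCD livers. It measured 2.48 CPM in the lowest, 3.16 in the median and 6.27 in the highest control library, against 10.8, 15.1 and 22.1 CPM in MCD libraries. The groups did not overlap. Means were 4.25 ± 1.63 CPM in control and 15.5 ± 3.46 CPM after the MCD diet (SD, n = 12 each). This was 3.64-fold, with a 95% confidence interval from 2.84 to 4.66 (log2 fold change 1.86, SE 0.17, edgeR FDR 1.06e-09).

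Tlr1 (ENSMUSG00000044827), a partner of Tlr2 for triacylated lipopeptides, ran from 1.14 to 3.73 CPM in control libraries (median 2.71) and from 4.53 to 8.15 CPM in MCD libraries (median 6.59). Again every MCD library exceeded every control library. This was a 2.65-fold difference (1.41 on the log2 scale, SE 0.17, edgeR FDR 8.2e-08). Tlr6, the other partner of Tlr2 and not among the 10 genes, was higher as well, by 1.41 on the log2 scale (SE 0.21, edgeR FDR 2.6e-06). It had 3 to 29 counts in control and 37 to 83 in MCD libraries.

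Tlr4 (ENSMUSG00000039005), the lipopolysaccharide receptor, rose by a smaller factor. Control libraries held 0.605 to 2.79 CPM (median 1.55, 8 to 50 counts) and MCD libraries 2.11 to 3.45 CPM (median 2.88, 54 to 81 counts). The groups overlapped: 7 of the 12 MCD libraries lay above the highest control library. The difference was 1.85-fold, with a 95% confidence interval from 1.41 to 2.43 (0.89 on the log2 scale, SE 0.19, edgeR FDR 2.64e-04).

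Cd14 (ENSMUSG00000051439) showed the largest rise of the 10 genes. It ran from 2.54 to 7.81 CPM in control libraries (median 5.71) and from 22.3 to 39.4 CPM in MCD libraries (median 31.7). The lowest MCD library thus lay well above the highest control library. Means were 5.35 ± 1.95 and 31.0 ± 5.54 CPM (SD, n = 12 each), a 5.78-fold difference (95% confidence interval 4.54 to 7.37, log2 fold change 2.53, SE 0.17, edgeR FDR 3.97e-12).

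Cd14 and Tlr4, co-receptor and receptor, were also compared within each library, where scaling cannot enter. Control livers held a median of 3.24 Cd14 counts per Tlr4 count (2.10 to 9.12), and MCD livers 10.6 (8.23 to 16.1). The ranges touched only through the highest control library, replicate 12, which had 8 Tlr4 counts. The mean log2 ratio was 1.60 higher in MCD livers (two-sided permutation test with 100000 resamples, p = 2e-05), and 1.72 higher without control replicate 12.

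Tlr5 (ENSMUSG00000079164), the flagellin receptor, went the other way. Control libraries held 7.24 to 33.3 CPM (median 24.2, 128 to 670 counts) and MCD libraries 3.11 to 7.39 CPM (median 4.62, 73 to 162 counts). Of the MCD libraries, 11 of 12 lay below every control library. The exception was MCD replicate 9 at 7.39 CPM, just above control replicate 4 at 7.24 CPM, and without either of these libraries the groups did not overlap. The mean fell from 22.5 ± 7.99 to 4.90 ± 1.47 CPM (SD, n = 12 each), 4.59-fold lower in MCD livers (log2 fold change -2.20, SE 0.20, edgeR FDR 9.07e-10). It remained lower under each scaling tried, from -2.20 to -1.86 on the log2 scale.

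**Figure D2:**
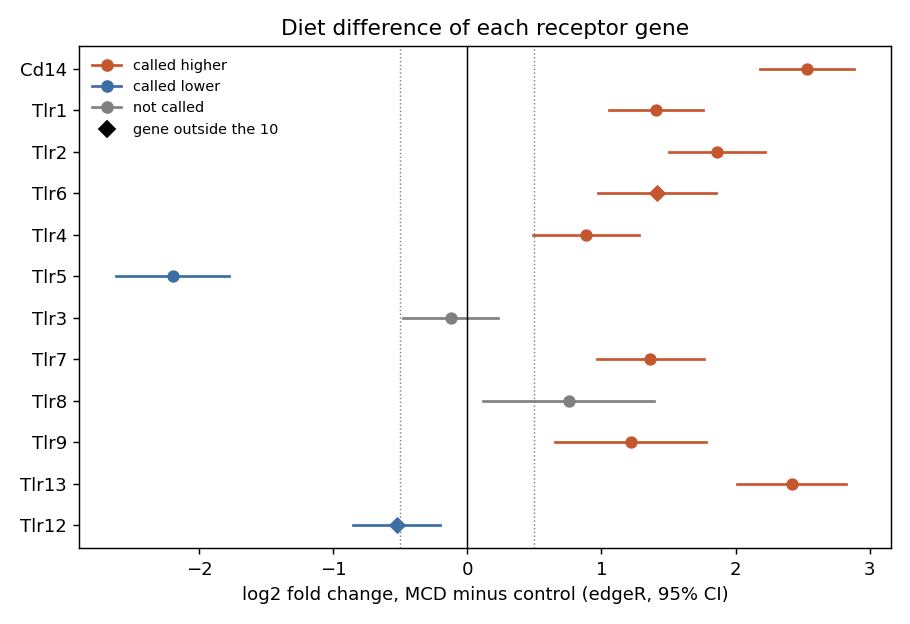
Log2 fold change (MCD minus control) with its 95% confidence interval for the 10 genes (circles) and for Tlr6 and Tlr12 (diamonds). Dotted lines mark the limits of -0.5 and 0.5. Cd14 (2.53) and Tlr13 (2.42) lie farthest right and Tlr5 (-2.20) farthest left.

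Among the endosomal receptors, Tlr13 (ENSMUSG00000033777) differed most. It ran from 1.05 to 4.30 CPM in control libraries (median 1.74) and from 7.15 to 15.1 CPM in MCD libraries (median 10.4). The groups did not overlap. The difference was 5.35-fold (95% confidence interval 4.04 to 7.08, log2 fold change 2.42, SE 0.20, edgeR FDR 9.76e-11).

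Tlr7 (ENSMUSG00000044583) also separated the diets, at 0.614 to 3.56 CPM in control (median 2.23) and 4.48 to 7.03 CPM in MCD libraries (median 5.68). The rise was 1.36 on the log2 scale (SE 0.19, edgeR FDR 1.03e-06). Tlr9 (ENSMUSG00000045322) had 3 to 31 counts per control library and 27 to 68 per MCD library, and the lowest control library is at the counting floor of 3 counts. It measured 0.195 to 1.74 CPM in control (median 0.568) and 1.18 to 2.73 CPM in MCD libraries (median 1.71). It rose by 1.22 on the log2 scale (SE 0.27, edgeR FDR 3.79e-04), though the groups overlapped: 6 of 12 MCD libraries lay above all control libraries.

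Tlr8 (ENSMUSG00000040522) did not pass the test. Control libraries held 0 to 50 counts (median 34) and MCD libraries 41 to 78 (median 63.5), which is 0 to 2.50 CPM against 1.63 to 4.10 CPM. The 0 belongs to control replicate 12, where the counting floor of 3 counts is 0.227 CPM. The log2 fold change was 0.76 (SE 0.31, 95% confidence interval 0.12 to 1.39, edgeR FDR 0.0356), and 0.67 without control replicate 12 (FDR 0.0168). It passed the threshold with total counts alone as scaling (1.06, FDR 0.0088).

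Tlr3 (ENSMUSG00000031639) did not pass the test either. It ran from 1.14 to 8.07 CPM in control (median 6.67) and from 4.54 to 8.09 CPM in MCD libraries (median 5.51), with control replicate 12 again the lowest, at 15 counts. The other 11 control libraries held between 5.25 and 8.07 CPM, inside the MCD range. The log2 fold change was -0.12 (SE 0.17, 95% confidence interval -0.48 to 0.23, edgeR FDR 0.545), -0.19 without control replicate 12 (FDR 0.0829), and above 0 with upper-quartile scaling (0.02) or total counts (0.21). Tlr3 is the 1 gene of the 10 with an annotated opposite-strand exon overlap (Gm45542), and the use of strand in counting is not given in the sources used here.

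Levels can be compared between genes only per length of exon sequence. In control livers the order in CPM per kb was Tlr5 (4.69 ± 1.67), Cd14 (3.09 ± 1.12), Tlr2 (1.41 ± 0.54), Tlr3 (1.20 ± 0.34), Tlr1 (0.721 ± 0.255), Tlr7 (0.535 ± 0.237), Tlr13 (0.472 ± 0.225), Tlr8 (0.422 ± 0.243), Tlr4 (0.269 ± 0.121) and Tlr9 (0.231 ± 0.157, SD, n = 12). Of the 9 neighbouring pairs in this order, 7 differed by less than the larger of their SDs, all except Cd14 and Tlr2, and Tlr3 and Tlr1. In MCD livers the order became Cd14 (17.9 ± 3.20), Tlr2 (5.16 ± 1.15), Tlr13 (2.54 ± 0.61), Tlr1 (1.92 ± 0.36), Tlr7 (1.38 ± 0.19), Tlr3 (1.11 ± 0.20), Tlr5 (1.02 ± 0.31), Tlr8 (0.726 ± 0.197), Tlr9 (0.548 ± 0.141) and Tlr4 (0.502 ± 0.072). Here 4 pairs differed by less than the larger SD, the neighbours from Tlr3 down to Tlr4. These orders were not tested.

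Taken as shares of the 9 receptor mRNAs per kb, without Cd14, and without Tlr12, which exceeded all 9 in both diets, the leading receptor was Tlr5 in control and Tlr2 in MCD livers. Tlr5 held 47.0 ± 13.2% in control livers (16.6% to 64.4%) and 6.87 ± 1.99% in MCD livers (4.59% to 11.5%). It ranked first in 11 of 12 control libraries, the exception being replicate 4. Tlr2 held 14.3 ± 4.69% in control and 34.5 ± 5.59% in MCD livers and ranked first in all 12 MCD libraries.

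Tlr13 moved from the sixth rank, with 4.89 ± 2.40%, to the second, with 17.0 ± 3.20% of the 9 receptor mRNAs. Tlr3 held 12.1 ± 3.78% in control and 7.43 ± 0.999% in MCD livers. The sum of the 9 receptors ran from 5.95 to 12.6 CPM per kb in control (median 10.1) and from 11.99 to 18.0 in MCD libraries (median 14.5), so the totals overlapped only narrowly. The 5 endosomal receptors made up a median of 28.6% in control (17.7% to 45.3%) and 41.5% in MCD libraries (36.5% to 50.5%). Shares within a library are bound to each other and were given no test.

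**Figure D3:**
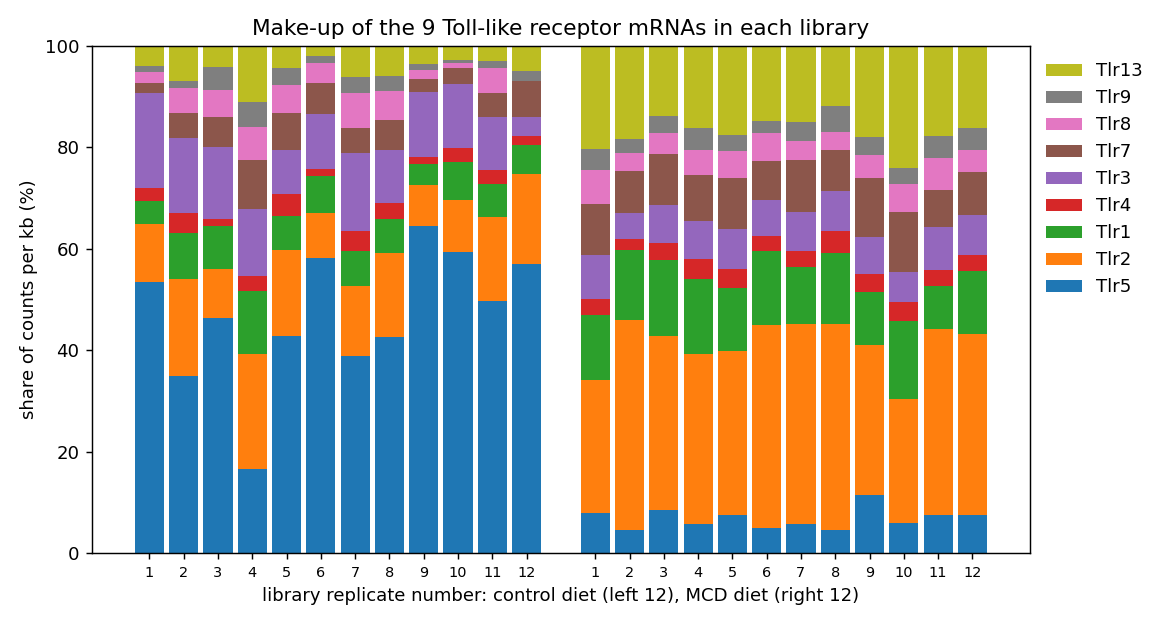
Share of each receptor in the summed counts per kb of the 9 receptor mRNAs, 1 bar per library, in percent. Tlr5 is the largest part of the control bars except replicate 4 and a small part of the MCD bars, where Tlr2 is the largest part.

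Macrophages are a main carrier of these receptors, so marker genes were read beside them. Of 6 genes shared by macrophages, 5 were higher in MCD livers, and their summed level ran from 129 to 334 CPM in control and from 993 to 2392 CPM in MCD libraries. Lyz2 alone carried most of that sum in MCD livers (83.4 ± 31.9 CPM in control, 1142 ± 332 CPM in MCD), while Mertk was at 22.1 ± 7.10 and 16.6 ± 3.07 CPM and did not pass. All 6 markers of monocyte-derived macrophages were higher (sum 3.45 to 52.4 CPM in control, 553 to 1214 CPM in MCD, mostly Gpnmb at 568 ± 159 CPM), while 5 of 6 Kupffer cell markers were lower (149 to 445 against 81.3 to 297 CPM). Of 6 neutrophil markers, 3 could be tested and all 3 were higher (sum 2.42 to 7.18 against 12.4 to 33.3 CPM), with Ly6g at 0 counts in every control library and at most 3 in MCD libraries. Ptprc, the common leukocyte antigen, rose by 1.30 on the log2 scale (SE 0.13, edgeR FDR 5.48e-09).

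Other lists are given by their counts, beside 19.2% of all tested genes higher and 19.1% lower. Of 4 B cell markers 1 was higher (2.86 to 11.4 against 6.83 to 12.7 CPM), and of 5 dendritic cell markers 2 of the 3 tested (3.94 to 8.63 against 5.44 to 10.6 CPM). Of 5 endothelial markers 4 were lower (170 to 250 against 97.5 to 155 CPM), as were 2 of 5 hepatocyte markers. Of 5 mesenchymal markers 4 were higher and 1 was lower (131 to 334 against 406 to 675 CPM), and all 4 cholangiocyte markers were higher (3.71 to 14.8 against 40.0 to 95.6 CPM). With total counts as scaling, 2 Kupffer cell, 1 endothelial, 0 hepatocyte and 0 mesenchymal markers were lower, and with upper-quartile factors 4, 2, 1 and 1, while the counts of higher markers were the same in each list except B cells (2 with total counts). What part these cells have in the receptor differences was not tested.

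To set each receptor beside the macrophage gene Adgre1 (F4/80) without any library scaling, counts were divided within each library. Adgre1 itself was higher in MCD livers by 0.65 on the log2 scale (SE 0.13, edgeR FDR 1.24e-04). Relative to it, 6 of the 10 genes rose with the MCD diet and 2 fell, while 0 rose relative to Cd68, Itgam or Lyz2 (two-sided permutation tests of the log2 ratio, 100000 resamples, Benjamini-Hochberg adjusted over the 10 genes). Adjusted over all tested genes, the same 6 and 2 genes passed, beside 12.4% of 14108 genes higher and 69.8% lower, and the median gene was at -0.78.

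Cd14 had a median of 0.257 counts per Adgre1 count in control (0.147 to 0.368) and 0.901 in MCD libraries (0.668 to 1.13), a log2 difference of 1.89. Tlr13 had 0.0916 (0.0511 to 0.139) and 0.316 (0.181 to 0.445), a log2 difference of 1.79. Tlr2 had 0.199 (0.140 to 0.296) and 0.442 (0.316 to 0.585), a log2 difference of 1.21. These 3 genes kept separate groups in this ratio, each with an adjusted p of 2e-05, which rests on the smallest p the permutations can give. MCD libraries lay above all control libraries in this ratio for 3.41% of tested genes.

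Tlr7 (0.79, adjusted p = 5e-05), Tlr1 (0.76, adjusted p = 2e-05) and Tlr9 (0.75, adjusted p = 0.00363) were higher relative to Adgre1 by smaller amounts in permutation tests, and their groups overlapped. Tlr4 (0.29, adjusted p = 0.0728, but 0.0234, 0.0425 and 0.0389 without control replicate 10, control replicate 11 or MCD replicate 2) and Tlr8 (0.54, adjusted p = 0.265, and 0.14 without control replicate 12) did not pass the same permutation test. Tlr5 fell by 2.86 with separate groups, beside 13.5% of tested genes separate in this direction (adjusted permutation p = 2e-05), from a median of 1.09 counts per Adgre1 count (0.233 to 2.46) to 0.137 (0.0792 to 0.229). Tlr3 fell by 0.74 (adjusted permutation p = 0.00715), and by 0.91 without control replicate 12. Over all tested genes the median was -0.78 and 69.8% were lower in this ratio, so the fall of Tlr3 is not particular to it.

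These directions depended on the reference gene. The macrophage markers themselves rose unequally: beside Adgre1 (0.65) and Csf1r (0.67), the log2 fold change was 2.75 for Cd68, 3.33 for Itgam and 3.78 for Lyz2, each more than that of Cd14 (2.53), and -0.42 for Mertk, which was not called. With Csf1r as reference 6 genes were again higher and 2 lower, beside 11.9% and 70.0% of all tested genes. With Mertk 9 were higher and 1 was lower (8 and 1 when adjusted over all tested genes, beside 24.2% and 7.05%). With Cd68, 0 genes were higher and 8 were lower, Cd14 (-0.17, adjusted permutation p = 0.249) and Tlr13 (-0.27, adjusted permutation p = 0.121) not passing, beside 1.24% and 95.1% of all tested genes. With Itgam or Lyz2, 0 were higher and all 10 were lower, as were 97.1% and 98.1% of all tested genes, so these counts say nothing particular about the 10. The 4 references Cd68, Itgam, Lyz2 and Mertk were added after the data were seen.

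With Ptprc, Cd14 (1.25), Tlr13 (1.14) and Tlr2 (0.57) were higher, at adjusted permutation p-values of 1e-04, 1.25e-04 and 2.2e-04, beside 6.64% of all tested genes higher and 83.9% lower. Lower were 3 genes, Tlr5 (-3.50), Tlr3 (-1.38) and Tlr4 (-0.35), at adjusted permutation p-values of 1e-04, 1.25e-04 and 0.0373. The differences of Tlr1 (0.11), Tlr7 (0.14), Tlr9 (0.10) and Tlr8 (-0.10, adjusted permutation p = 0.866) did not pass. Over these 7 references, Tlr5 was the 1 gene of the 10 with the same direction and a passing test each time, with log2 differences from -1.83 (Mertk) to -5.96 (Lyz2). Lower genes made up 69.8% to 98.1% of all tested genes with each reference except Mertk, where they made up 7.05%. The share of all genes lower with all 7 was not computed.

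**Figure D4:**
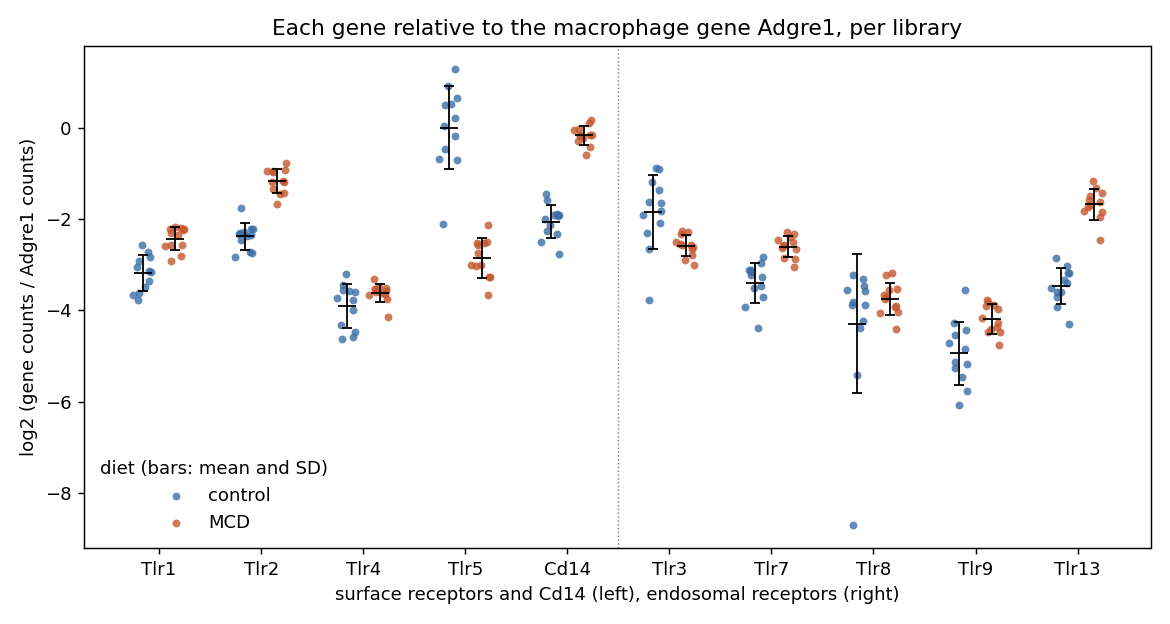
Log2 of each gene's counts over Adgre1 counts in the same library (0.5 added to both), with mean and SD per diet (n = 12). Cd14, Tlr13 and Tlr2 shift up and Tlr5 shifts down with no overlap between control (blue) and MCD (orange), while the Tlr4 and Tlr8 groups overlap. The upward shifts of Cd14, Tlr13 and Tlr2 also passed with Csf1r, Mertk or Ptprc as reference, turned downward with Itgam or Lyz2, and with Cd68 were below 0 for all 3 and past the test for Tlr2.

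Within a diet, the genes were related to Adgre1 across the 12 libraries. The 20 relations share the scale of the libraries, and p-values were adjusted over all 20. In control livers 8 of 10 genes correlated positively with Adgre1 past an adjusted permutation p of 0.05 by Pearson's r, and 7 by Spearman's rho. As a description, an r at or above the lowest of these 8 (0.69) was found for 4.15% of the 14108 tested genes other than Adgre1 in control libraries and for 1.84% in MCD libraries. The strongest was Tlr2 (r = 0.85, adjusted permutation p = 0.009, rho = 0.75, adjusted p = 0.0289), followed by Tlr7 (r = 0.84, adjusted permutation p = 0.009, rho = 0.80, adjusted p = 0.0267).

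Tlr5 (r = -0.36, rho = -0.38) and Tlr3 (r = 0.17, rho = -0.31) did not pass in control livers. Without the 2 libraries farthest from the Adgre1 median, replicates 5 and 9, r passed for Tlr7 (0.80) and Tlr13 (0.85) only. Among the lost calls, r itself stayed close for Tlr1 (0.74 with and without), Tlr8 (0.69 and 0.71) and Tlr9 (0.76 and 0.74) at the smaller n of 10, and was lower for Tlr4 (0.70 and 0.53). Without control replicate 12, 7 genes passed by r and 5 by rho. In MCD livers 0 of 10 passed, and r ran from 0.14 (Tlr7) to 0.63 (Cd14), with all 10 above 0. Whether the relations differ between the diets was not tested.

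Between the genes themselves, correlations are described without a test. Of the 45 pairs, 27 had r above 0.5 across control libraries (21 without replicate 12) and 8 across MCD libraries. The median r was 0.53 in control and 0.19 in MCD livers. The same values over all gene pairs were not computed, so neither the counts nor their drop can be read as particular to these genes. Control libraries also varied more over all tested genes, with a median coefficient of variation of 26.7% against 14.2% in MCD libraries. Whether this spread shapes the counts of pairs was not tested. Tlr2 and Cd14 were the closest pair over both diets (r = 0.88 in control and 0.73 in MCD).

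In control, the r of Tlr5 was below 0 with 8 of the other 9 genes, all but Tlr3. In MCD livers it was below 0 with Cd14, Tlr2 and Tlr1 and reached 0.62 with Tlr7 and 0.56 with Tlr3. With Tlr13 its r was -0.62 in control and 0.45 in MCD libraries. The r of Tlr3 with Tlr8 in control, 0.76, came from replicate 12 alone, since it was -0.18 without that library.

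**Figure D5:**
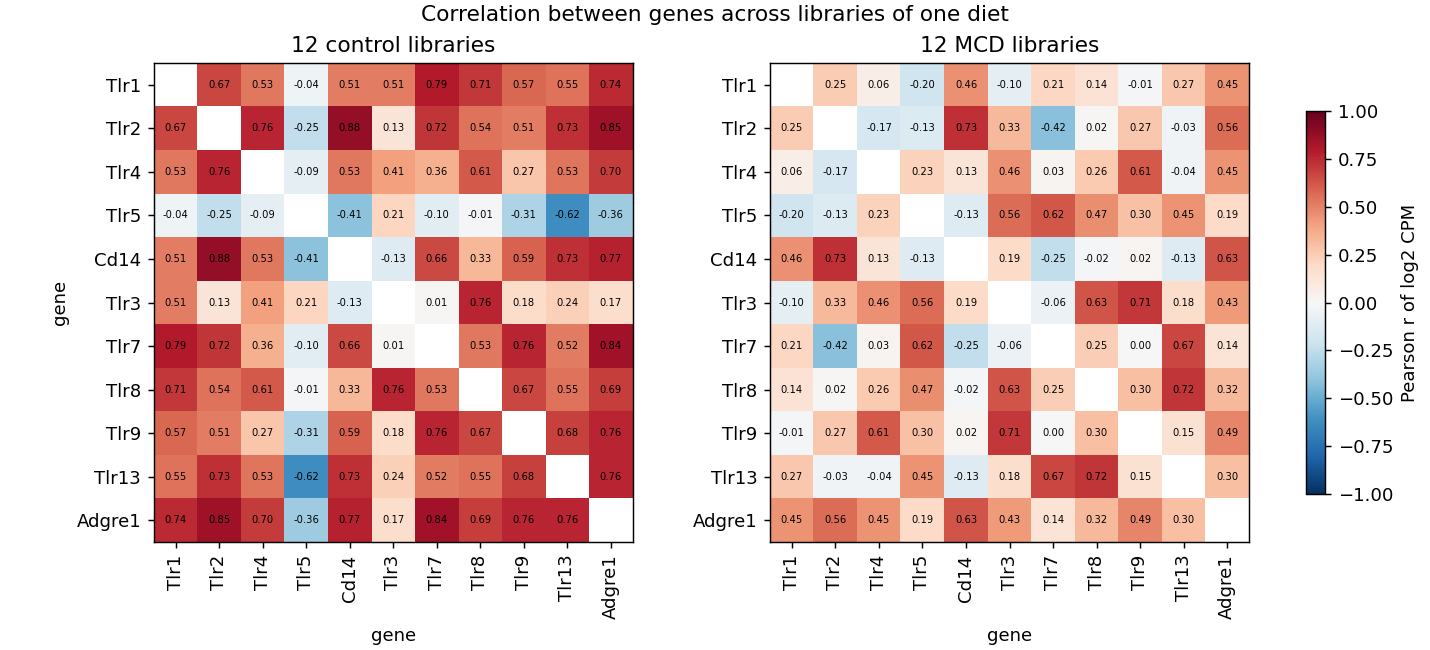
Pearson r of log2 CPM between the 10 genes and Adgre1 across the 12 control libraries (left) and the 12 MCD libraries (right), from -1 (blue) to 1 (red). The control panel is mostly red outside the Tlr5 and Tlr3 rows, and the MCD panel is paler, with Tlr2 and Cd14 (0.73) its highest pair.

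The genes most like each receptor were taken by the mean of their r within control and within MCD livers, among 13104 genes with a mean of at least 1 CPM, as a description over 12 libraries a diet. Tlr2 was nearest to Icam1 (mean r 0.85), an adhesion molecule for leukocytes, then to Gipc2 (0.83) and Cdc42se1 (0.81). Cd14 was nearest to Tlr2 (0.80), Icam1 (0.78) and Akr1b10 (0.77). Tlr13 was nearest to the chemokine gene Ccl6 (0.85), then to Gpr137b-ps (0.80) and the protease gene Adam8 (0.80).

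Tlr1 was nearest to Ptprc (0.78), Pgm2 (0.77) and Cytip (0.76), and Tlr7 to Ifi207 (0.77), Cytip (0.72) and Sla (0.71). Tlr9 was nearest to Themis2 (0.75), ENSMUSG00000120992 (0.75) and Spats2l (0.74), Tlr4 to Nxpe4 (0.78), Tiparp (0.76) and Dse (0.75), and Tlr8 to Map3k3 (0.84), Postn (0.81) and C5ar1 (0.79). Tlr5 was nearest to Acsf2 (0.81), Apob (0.81) and Pex5 (0.80), and without control replicate 12 to Pex5 (0.85), Mtmr1 (0.85) and Acsf2 (0.84).

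The ranks of the Tlr3 neighbours rest in part on 1 control library. Tlr3 was nearest to Uhrf1bp1 (0.86), Hps3 (0.86) and Trim14 (0.85), with r of 0.77, 0.79 and 0.76 in MCD libraries. Their r with Tlr3 in control fell to 0.51, 0.20 and 0.41 without replicate 12, and none of the 3 stayed among its nearest. The control r of Tlr8 with Map3k3 and C5ar1 also fell, from 0.85 and 0.78 to 0.46 and 0.48. The 3 neighbours of Tlr9 were displaced in rank without replicate 12, but their control r was nearly the same (0.84, 0.65 and 0.83 with it, 0.83, 0.64 and 0.82 without it).

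Of the Toll-like receptor genes outside the 10, Tlr12, a receptor for parasite profilin, was the most abundant, at 43.8 ± 16.2 CPM in control and 30.4 ± 4.43 CPM with the MCD diet (SD, n = 12 each). Per kb it reached 13.8 ± 5.09 CPM in control, above Tlr5, and 9.58 ± 1.39 CPM in MCD livers, above Tlr2. Its call (log2 fold change -0.53, SE 0.16, edgeR FDR 0.00506) was lost under 10 of 11 alternatives and without 14 of the 24 libraries in turn, control replicate 12 among them. Tlr11, the related profilin receptor, had 1 to 13 counts in control and 3 to 31 in MCD libraries and was too low to test.

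The receptor partners were mixed. Of 6, 2 were higher and 0 were lower. Cd180 (RP105), a receptor-like molecule on B cells and myeloid cells, rose by 1.41 on the log2 scale (SE 0.18, edgeR FDR 1.28e-07), and its partner Ly86 (MD-1) by 1.70 (SE 0.14, edgeR FDR 6.12e-11), both with separate groups. Ly96, the MD-2 subunit of the lipopolysaccharide receptor, was at 2.66 ± 0.80 CPM in control and 2.77 ± 0.40 CPM in MCD livers (log2 fold change 0.07, edgeR FDR 0.683). Lbp, the plasma protein that hands lipopolysaccharide to Cd14, had a log2 fold change of -0.53 (edgeR FDR 0.0121, passing under 4 of 11 alternatives and without any 1 of 5 libraries), Cd36 0.46 (edgeR FDR 0.0489, passing under 3 of 11 and without control replicate 11) and Hmgb1 -0.04 (edgeR FDR 0.645, and above 0 with other scalings).

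Of 11 genes of endosomal trafficking and receptor processing, 6 were higher and 1 was lower, with a median log2 fold change of 0.82. The 3 with the largest rises were the proteases Ctsk (3.78, SE 0.21, edgeR FDR 2.21e-13) and Ctss (3.14, SE 0.18, edgeR FDR 4.8e-13) and the lysosomal transporter Slc15a3 (1.57, SE 0.18, edgeR FDR 2.55e-08). Hsp90b1, the chaperone gp96 that folds most of these receptors, fell by 0.65 on the log2 scale (SE 0.07, edgeR FDR 8.96e-09), and its call was lost with total counts as scaling. These genes also serve many proteins other than the receptors.

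Of 20 adaptors and kinases, 3 were higher and 3 were lower, with a median of -0.24. The rises were in Ticam2 (1.78, SE 0.24, edgeR FDR 4.85e-07, at 1 to 9 counts per control library), the bridging adaptor between Tlr4 and Ticam1, in the kinase Ikbke (0.84, SE 0.11, edgeR FDR 4.69e-07) and in Tab1 (0.58, SE 0.12, edgeR FDR 1.26e-04). Ticam2 shares exon sequence with Tmed7 on the same strand, so its counts are uncertain. With so few control counts, Ticam2 passed the low-count filter only through its MCD libraries. Tirap, the bridging adaptor of Myd88 at Tlr2 and Tlr4, fell by 1.11 on the log2 scale (SE 0.14, edgeR FDR 1.12e-07), the kinase Chuk by 0.80 (SE 0.12, edgeR FDR 3.55e-06) and the ligase Traf6 by 0.51 (SE 0.07, edgeR FDR 5.3e-07). With total counts as scaling, Tirap was the 1 of these 3 that was still called. The call of Traf6, near the limit, was lost under 8 of 11 alternatives and without 15 of the 24 libraries in turn.

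Of 9 transcription factors, 4 were higher and 0 were lower. Relb rose by 1.83 (SE 0.17, edgeR FDR 1.05e-09), Irf5, a factor downstream of Myd88, by 1.78 (SE 0.12, edgeR FDR 2.72e-12), and Irf8, a factor of myeloid cells, by 1.42 on the log2 scale (SE 0.12, edgeR FDR 2.36e-10). Of 10 negative regulators 8 were tested, of which 5 were higher and 1 was lower. Socs1 (1.76, SE 0.26, edgeR FDR 1.76e-06), Tnfaip3 (A20; 1.59, SE 0.13, edgeR FDR 8.83e-11) and Irak3 (1.33, SE 0.13, edgeR FDR 3.59e-09) rose most, while Tollip fell by 0.55 (SE 0.06, edgeR FDR 6.28e-09), a call that other scalings removed. Socs1, at 1 to 13 counts per control library, passed the low-count filter only through its MCD libraries.

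Of 16 cytokines and enzymes that these receptors can induce, 11 were tested and 10 of those were higher, with a median log2 fold change of 2.27. Saa3, an acute phase gene, rose by 3.24 (SE 0.33, edgeR FDR 4.63e-09), or by 3.84 (SE 0.18, edgeR FDR 7.63e-14) without control replicate 12, which held 207 of its counts against a control median of 34, and the chemokines Cxcl2 and Ccl4 by 3.11 (SE 0.39, edgeR FDR 1.55e-07) and 2.79 on the log2 scale (SE 0.27, edgeR FDR 1.83e-09). Cxcl2 had 0 to 7 counts and Ccl4 1 to 12 counts per control library, so the size of their folds rests on few control reads. Genes this low in control, Tnf (1 to 11 counts) and Ccl3 (0 to 14) among them, passed the low-count filter only through their MCD libraries. Such genes could hardly be called lower, so the count of 10 and the median of 2.27 are in part set by the filter. Il1b was tested and not called (0.42, edgeR FDR 0.106), and Ifnb1 had 0 counts in all 24 libraries. Il1b and Ifnb1 were named after their values were seen.

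Over the 75 genes of these lists, 67 were tested, of which 31 were higher and 6 were lower, beside 19.2% and 19.1% of all tested genes. With other scalings 1 to 3 of them were lower. Some of the higher genes passed the low-count filter only through their MCD libraries.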

How the data were processed

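Poly(A) RNA from whole mouse liver was sequenced, 12 libraries for each diet. The authors deposited 1 table of raw counts per gene, whole numbers that were not normalized. The submitters' processing notes name STAR 2.7.3a, bcl2fastq and mm10. The study's methods describe a stranded library kit, and quantification with the exon quantification pipeline, STAR and PISCES, but for a human reference. Which counter, strand setting and annotation made the mouse table is not given in the sources used here, and reads shared by overlapping genes may be split in ways not known here. Gene symbols came from GENCODE M21 and matched 51745 of 56205 rows; rows without a symbol held 0.0808% of counts. All sample columns were used, leaving 0 aside. Total counts were 16388650 to 24915175 per library, and counting floors cover counting error only.

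Genes passing edgeR's filterByExpr (14109) were fitted by quasi-likelihood with TMM factors and Benjamini-Hochberg adjustment (edgeR 4.0.16, limma 3.58.1, DESeq2 1.42.0, R 4.3.3). The biological coefficient of variation was 26.8%. Within-library ratios (0.5 added to both counts) and correlations were tested with 100000 permutations in Python 3.11.15 with numpy 2.4.6 and scipy 1.17.1; the smallest p is 1e-05. The most similar pair of libraries of a diet reached a dispersion index of 8.57 (1 would be pure sampling noise), so all were kept as separate samples. No label ties a given library to an animal. Each library was taken as a separate animal because the stated numbers match, and p-values measure the spread between these samples.

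The genes and the lists were chosen with earlier results of these data known. Named genes were all 10 members, the 3 largest called rises and falls of each pathway list, all genes of a list of 6 or fewer, and the 3 genes most like each member; exceptions are stated. On simulated counts with 14029 genes and this comparison, 79 of 100 genes changed by 1 on the log2 scale and 95 of 100 changed by 2 were recovered, with 2 unchanged genes called. Alternatives were other scalings, filters, tools, thresholds and reference genes, a replicate block, a sex-linked score and leaving out each library. Correlations without control replicate 12, 4 further reference genes for the ratios, the shares of all tested genes in each ratio and the marker lists under other scalings were added after the data were seen.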

Additional observations from a re-analysis of the deposited data

How the results depend on the processing

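For the 10 genes, 240 of 240 calls kept their direction and side of the threshold when each of the 24 libraries was left out in turn, and 101 of 106 did under the other alternatives. Tlr3 changed sign with upper-quartile factors (0.0225) and total counts alone (0.21), Tlr8 passed with total counts or an FDR of 0.05, and Tlr4 did not reach a log2 limit of 1. With at least 10 counts in every library, 4 members were called higher, since Tlr4, Tlr7, Tlr8 and Tlr9 were not tested there. Scaling moved the median of all genes by 0.37 (total counts) and 0.15 (upper quartile). Without a filter the median was 0.12 higher, over 27553 genes in place of 14109. The share of higher calls was 50.2% with TMM, 65.6% with upper-quartile factors and 84.3% with total counts.

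Over all tested genes, 4539 were higher and 848 lower with total counts, 1710 were lower with upper-quartile factors, 1801 were higher with at least 10 counts in every library, and 5221 (FDR 0.05) and 686 (log2 limit of 1) were lower under other thresholds. The pathway lists held 3 lower genes with DESeq2, with upper-quartile or relative log expression factors, or with at least 10 counts, 1 with total counts or a log2 limit of 1, 17 at an FDR of 0.05, and 3 to 6 with 1 library left out (3 without MCD replicate 2, 6 or 8). The log2 fold change of Hmgb1 was above 0 with relative log expression factors (0.025), DESeq2 (0.025), upper-quartile factors (0.11), total counts (0.32), no filter (0.00447) and at least 10 counts (0.045), and ran from -0.064 to 0.025 with 1 library left out. The number of members whose groups did not overlap downward was 0 to 1 with 1 library left out, 1 being Tlr5 without control replicate 4 or MCD replicate 9.

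With Ptprc as denominator 3 ratios were higher, and those of Tlr4 (-0.35) and Tlr8 (-0.10) changed sign. With Cd68 0 ratios were higher and 8 lower, with Lyz2 and Itgam 0 and 10, and with Mertk 9 and 1 (these 4 added after seeing the data). In the order Cd68, Lyz2, Itgam, the reversed log2 ratios were -1.30, -2.34 and -2.005 (Tlr1), -0.85, -1.89 and -1.55 (Tlr2), -1.77, -2.81 and -2.47 (Tlr4), -1.27, -2.31 and -1.98 (Tlr7), -1.52, -2.56 and -2.22 (Tlr8), -1.31, -2.36 and -2.02 (Tlr9), -0.27, -1.32 and -0.98 (Tlr13), and -0.17, -1.21 and -0.87 (Cd14), and with Mertk 0.29 (Tlr3). Without the 2 farthest libraries 2 control relations passed, and with Ptprc in place of Adgre1 2 MCD relations passed. The cause of these shifts was not tested.

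Whether replicate numbers mark shared animals or days is not labelled. Of 12 same-number pairs, 8 had a correlation of deviations above 0.1 (-0.28 to 0.35, median 0.233, against -0.059 for other pairs), short of every pair, so the numbers were not used to pair the libraries. Of the control libraries, 2 correlated best with their own number. With the replicate block 2781 genes were higher and 2430 lower, and no member's call changed; in the ratios 6 were again higher and 2 lower.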

Other observations

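The 10 genes varied less between MCD livers than between control livers. The coefficient of variation of CPM was lower in MCD livers for 10 of 10 genes, with a median of 41.3% in control and 20.5% in MCD. The same held for 90.04% of all 14109 tested genes, from a median of 26.7% to 14.2%, so it is not particular to these receptors. Without control replicate 12 it held for 9 of the 10 genes and 80.7% of all tested genes.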
